A study of Phalaenopsis equestris with 4 samples.

Results

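The comparison set the stem of the butterfly orchid Phalaenopsis equestris against its flower, contig by contig. A contig is a transcript sequence assembled from the reads, and its level was given as FPKM, fragments scaled to transcript length and library size by the usual definition of that unit. A contig was used where it reached 1 FPKM in stem, in flower or in both, which 97590 of the 221878 contigs in the table did. Differences are given as log2(FPKM + 1) in stem minus flower, so a positive value means higher in stem, 1 is 2-fold and 2 is 4-fold on the FPKM + 1 scale. The study sequenced total RNA from root, stem, leaf and flower of plants described as 3 years old, with 1 library per tissue and no named treatment or genotype. With 1 stem and 1 flower library there was no test, no error and no p-value, and every difference is one between these libraries. A lower value in a bulk library can mean fewer cells of a type or less RNA per cell, and these cannot be told apart. Contigs are named in the tables only where they match heat shock or R gene models, so the tissue labels were not checked against marker genes.

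The orchid stem is a short axis that carries the leaves and roots and conducts water and sugars between them, whereas the flower combines sepals, petals, a lip and the fused reproductive column. A pair of gene groups could be placed in the comparison by name. Heat shock proteins are chaperones: the small HSP20 proteins hold unfolding proteins in a state from which they can be rescued, HSP70 proteins refold them using ATP, and HSP90 proteins help signalling proteins and receptors to mature. In plants many HSP20 genes are induced by heat and some are also expressed during pollen, seed and flower development. R genes are disease resistance genes, most of which encode receptors that detect pathogen proteins and set off defence.

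The libraries had nearly the same summed FPKM, 684575 in stem and 695751 in flower, but spread it differently. In stem 175844 contigs had a value above 0, against 116193 in flower. It took 4999 contigs to make up 50% of the sum in stem and 1561 in flower, and the 100 most abundant contigs held 13.0% of the sum in stem and 19.4% in flower. The tables give no numbers of reads. Among 14124 contigs that are the only contig of their Trinity gene, the assembler's unit of related contigs, and that lay above 0 but under 0.6 FPKM in both libraries, the most frequent ratio of stem to flower FPKM was 1.13, in a histogram bin that held 294 of them. If that ratio is 1 read against 1 read, a read was worth slightly more FPKM in stem than in flower.

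Most contigs were higher in stem, but the direction changed with expression level. Over all 97590 contigs used the median difference was 0.97, with quartiles at -0.02 and 1.40. Contigs higher in stem numbered 72765, or 74.6%, and those higher in flower 24821, or 25.4%. At 2-fold or more 47920 contigs (49.1%) were higher in stem and 9905 (10.1%) in flower. At 4-fold or more the counts were 9343 (9.57%) higher in stem and 2278 (2.33%) higher in flower.

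This majority came from contigs of low level. Of the contigs used, 56822 reached 1 FPKM in stem alone, 8319 in flower alone and 32449 in both. Over the 32449 contigs at 1 FPKM or more in both libraries the median difference was -0.02, with quartiles at -0.53 and 0.50, so these were centred near no difference. A value under the threshold was listed at 0 about as often in either library: 48.5% of those past it in stem alone were listed at 0 in flower, and 49.5% of those past it in flower alone were listed at 0 in stem. The threshold itself did not mark a step. The 7441 contigs whose higher value lay between 0.9 and 1 FPKM were higher in stem in 85.4% of cases, and the 6833 between 1 and 1.1 FPKM in 83.8%.

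**Figure D1:**
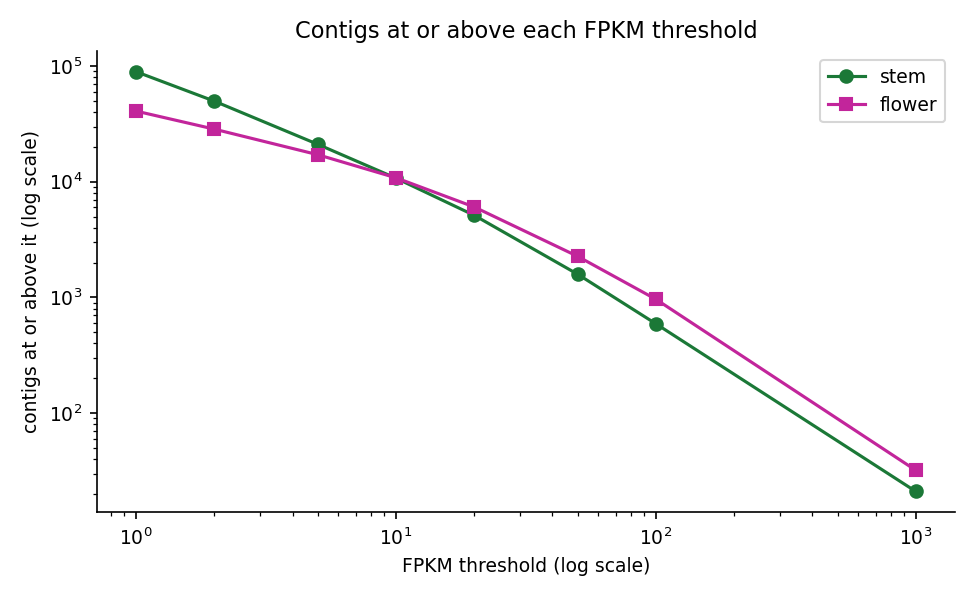
Number of contigs at or above each FPKM threshold in the stem library (circles) and the flower library (squares), 1 library each, both axes on a log scale. The lines cross near 10 FPKM, where stem had 10720 contigs and flower 10803.

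The number of contigs past a level showed the same turn. At 1 FPKM stem had 89271 contigs and flower 40768, at 2 FPKM 49691 and 28460, and at 5 FPKM 21047 and 17114. At 10 FPKM they were nearly level, with 10720 in stem and 10803 in flower. Above that flower had more, with 5120 contigs in stem and 6044 in flower at 20 FPKM, and 1585 in stem and 2263 in flower at 50 FPKM. At 100 FPKM stem had 591 contigs and flower 963, of which 401 passed in both, and at 1000 FPKM stem had 21 and flower 32, with 7 in both.

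Contigs were then grouped by the mean FPKM of stem and flower, a measure in which neither library weighs more. Below a mean of 1 FPKM a contig could enter only through the library in which it reached 1 FPKM, so a difference is built into that group, whose median of 1.07 (33884 contigs) was 0.54 with no filter. The median difference was 1.23 from 1 to 2 FPKM (26887), 0.71 from 2 to 5 (18093) and 0.07 from 5 to 10 (7966). Above 10 FPKM it was negative: -0.22 from 10 to 20 (5047 contigs), -0.32 from 20 to 50 (3777), -0.50 from 50 to 100 (1125) and -0.71 from 100 to 1000 (792). The share of contigs higher in stem was 82.4% from 1 to 2 FPKM and 24.0% from 100 to 1000 FPKM. The 19 contigs with a mean of 1000 FPKM or more broke the order, with a median of 0.31 and quartiles at -1.78 and 0.86, 10 of them higher in stem and 9 in flower. The sign of that last median depended on the processing. The medians of the levels up to 10 FPKM were positive, and those from 10 to 1000 FPKM negative, under each alternative pseudocount, scaling, filter, unit and way of setting levels tried.

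**Figure D2:**
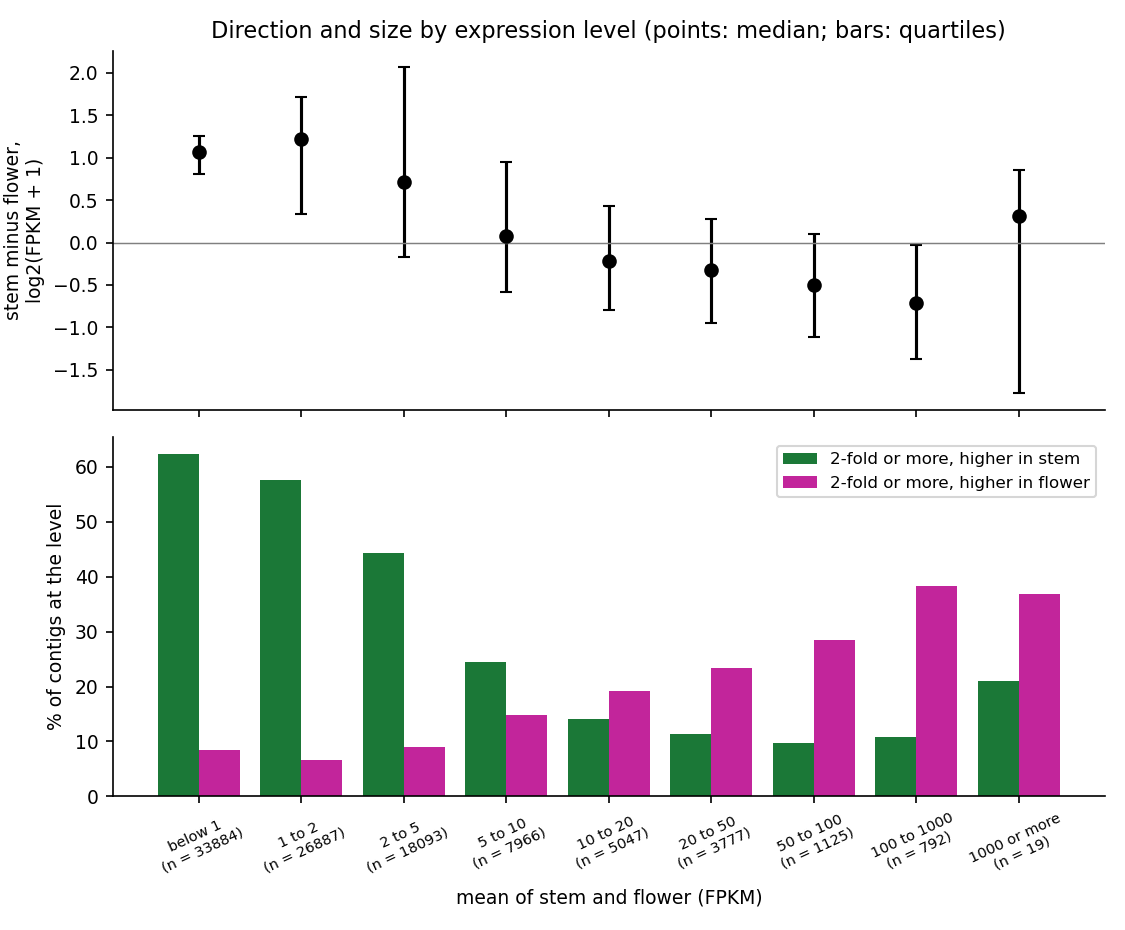
Top, the median of log2(FPKM + 1) in stem minus flower (points) with quartiles (bars) for contigs grouped by the mean FPKM of stem and flower; bottom, the percentage of contigs at each level at least 2-fold higher in stem (green) or in flower (magenta). The median is 1.23 from 1 to 2 FPKM and -0.71 from 100 to 1000 FPKM, and the taller bar changes from stem to flower at 10 FPKM.

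Large differences followed the same order. With a pseudocount of 1 a 4-fold difference needs a mean of at least 1.5 FPKM, so the lowest group could hold none. From 2 to 5 FPKM 26.5% of contigs were at least 4-fold higher in stem and 3.59% in flower, and from 5 to 10 FPKM 14.9% and 5.87%. From 10 to 20 FPKM the shares were close, at 7.31% higher in stem and 6.34% higher in flower. From 100 to 1000 FPKM 6.57% were higher in stem and 15.0% in flower. Of the 10760 contigs with a mean of at least 10 FPKM, 697 were 4-fold higher in stem and 848 in flower, against 7461 and 962 of the 78864 contigs with a mean under 5 FPKM. Although the contigs higher in flower at 4-fold were fewer, they carried a like part of their library. The 9343 contigs higher in stem held 18.1% of the summed FPKM of stem and 1.06% of that of flower. The 2278 contigs higher in flower held 1.64% of the sum of stem and 21.3% of that of flower.

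The levels behind these calls differed between the directions. A contig 4-fold higher in stem had a median of 5.25 FPKM in stem and 0 in flower, and 5987 of the 9343 (64.1%) were listed at 0 in flower. A contig 4-fold higher in flower had a median of 0.336 FPKM in stem and 11.8 in flower, and 790 of the 2278 (34.7%) were listed at 0 in stem. The shares listed at 0 in the other library depended on level. From 1 to 2 FPKM they were 93.0% for contigs higher in stem and 93.0% for those higher in flower. At that level a 4-fold call leaves the lower library little room above 0. From 2 to 5 FPKM the shares were 63.1% for stem and 50.2% for flower, and from 5 to 10 FPKM 34.4% and 20.3%. With a mean of at least 10 FPKM they were close, at 10.0% and 9.20%. Of the contigs higher in stem 80.4% were the only contig of their Trinity gene, against 62.6% of those higher in flower and 62.4% of all used. This order too depended on level. With a mean of at least 10 FPKM the shares were 65.4% for stem, 71.1% for flower and 64.2% of all.

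The contigs with the largest differences towards stem were abundant and near 0 in flower. Contig c100637_g1_i2 had the largest, 8.93, with 488 FPKM in stem and listed at 0 in flower, root and leaf. Contig c184841_g1_i1 had 283 FPKM in stem and 0.064 in flower, a difference of 8.06, and contig c146462_g1_i1 had 164 FPKM in stem and 0.071 in flower, a difference of 7.27. These 3 were at most 0.869 FPKM in root and listed at 0 in leaf. Others were shared with root: c143464_g1_i1 had 195 FPKM in stem, 0.226 in flower and 169 in root, and c152208_g1_i2 had 147 FPKM in stem, was listed at 0 in flower and had 149 in root. Contig c154393_g1_i1 had 487 FPKM in stem, 1.53 in flower and 115 in root. It was 1 of 7 contigs of its assembly component that were used, and all 7 were 4-fold higher in stem. Leaf was listed at 0 for the 3 contigs shared with root. Contig c146141_g1_i1 differed from them in being present in leaf, with 225 FPKM in stem, 0.276 in flower, 60.1 in root and 82.5 in leaf. Contig c145409_g2_i1 was the fifth most abundant in stem at 3470.1 FPKM, against 22.0 in flower, 181 in root and 131 in leaf.

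**Figure D3:**
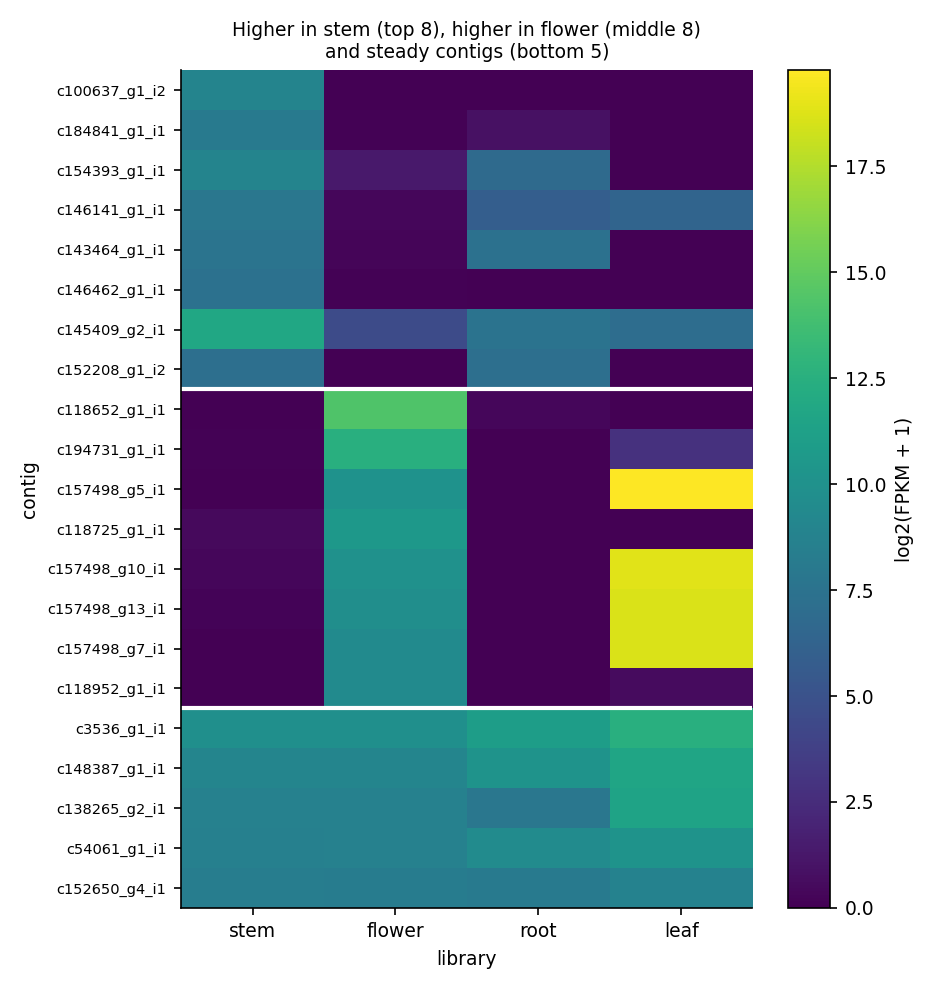
log2(FPKM + 1) in the stem, flower, root and leaf libraries for the 8 contigs with the largest differences towards stem (top), the 8 with the largest towards flower (middle) and the 5 most abundant contigs within 0.1 of no difference (bottom). Contigs of component c157498 are brightest in leaf, at up to 895227 FPKM, and 5 of the 8 contigs at the top are also at 60.1 FPKM or more in root.

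Towards flower the differences reached further. Contig c118652_g1_i1 was listed at 0 in stem and had 20372 FPKM in flower, a difference of -14.31 and the highest value of the flower library, with 0.261 FPKM in root and 0 in leaf. Contig c194731_g1_i1 had 0.073 FPKM in stem and 5815 in flower, a difference of -12.40, with 5.94 in leaf and 0 in root. Contig c118725_g1_i1 had 0.416 FPKM in stem and 1485 in flower, and c118952_g1_i1 was listed at 0 in stem and had 691 FPKM in flower. These 4 were at most 5.94 FPKM in root and leaf. The other 4 of the 8 largest were contigs of component c157498. All 13 of its contigs that were used were 4-fold higher in flower than in stem. Contig c157498_g5_i1 was listed at 0 in stem, had 1081 FPKM in flower and reached 895227 FPKM in leaf. That leaf value is above the summed FPKM of the whole stem library, 684575, and of the whole flower library, 695751. Whether leaf FPKM is on the scale of the other libraries was not tested. The other 3 of these 4 were at most 0.257 FPKM in stem, between 698 and 1012 FPKM in flower and listed at 0 in root. In leaf they had between 409904 and 475582 FPKM.

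The most abundant transcripts of the libraries overlapped in part. Contig c29967_g1_i1 led stem with 9099 FPKM and had 969.8 in flower, a difference of 3.23. Contig c155537_g1_i1 was the next in both libraries, with 6661 FPKM in stem and 12196 in flower, a difference of -0.87. Contig c141894_g1_i1 was the third in stem at 3939.8 FPKM but had only 28.8 FPKM in flower, a difference of 7.05. In flower, the ranks after c155537_g1_i1 went to c194731_g1_i1, to c136546_g3_i1 and to c109042_g1_i1. Contig c136546_g3_i1 had 13.0 FPKM in stem and 5002 in flower, a difference of -8.48. Contig c109042_g1_i1 was high in both, with 1051 FPKM in stem and 4471 in flower, a difference of -2.09, and was listed at 0 in root. The fourth contig of stem was that of HSP70_PEQU_18080, described below.

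Abundant contigs without a difference were also found. In all 3799 contigs lay within 0.1 of no difference, and 39765 (40.7%) lay within 2-fold. The 5 most abundant of the 3799 were c3536_g1_i1, with 910.1 FPKM in stem and 931 in flower, c148387_g1_i1, with 514 in stem and 503 in flower, c138265_g2_i1, with 405 in stem and 401 in flower, c54061_g1_i1, with 386 in stem and 403 in flower, and c152650_g4_i1, with 329.6 in stem and 309 in flower. All 5 had more in leaf than in stem or flower, from 443 to 5687 FPKM. This was not particular to them. The 6941 contigs within 2-fold at a mean of at least 10 FPKM had medians of 38.4 FPKM in leaf, 19.3 in stem and 21.5 in flower. The scale of leaf FPKM was not tested.

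Contigs of the same Trinity gene mostly lay on the same side. Of 10865 Trinity genes with at least 2 contigs used, all contigs were higher in stem in 5172, all were higher in flower in 3223 and contigs lay on both sides in 2469, with a median range of 0.39 between the lowest and highest difference in a gene. In 23 Trinity genes, 1 contig was at least 4-fold higher in stem and another at least 4-fold higher in flower. The gene whose smaller opposite difference was the largest was c144682_g1, whose contig c144682_g1_i2 had 19.7 FPKM in stem and 0.524 in flower while c144682_g1_i1 had 0.709 in stem and 22.5 in flower. In c150553_g1, contig c150553_g1_i2 had 51.0 FPKM in stem and 3.75 in flower, and c150553_g1_i1 had 2.42 in stem and 35.9 in flower. In c151907_g1, contig c151907_g1_i3 had 9.35 FPKM in stem and was listed at 0 in flower, contig c151907_g1_i1 was listed at 0 in stem and had 14.5 in flower, and c151907_g1_i2 had 10.7 in stem and 12.0 in flower. Contigs of 1 Trinity gene can be splice forms, alleles or close copies, and the tables do not tell which.

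Root and leaf were not used to choose contigs, and give a further description of them. Contigs with a mean of at least 10 FPKM in stem and flower are given here, since leaf listed 62.1% of the contigs with a mean under 5 FPKM at 0. The 697 of these that were 4-fold higher in stem reached 1 FPKM in root in 88.1% of cases and in leaf in 69.4%, with medians of 34.0 FPKM in stem, 2.53 in flower, 29.1 in root and 12.3 in leaf. The 848 that were 4-fold higher in flower reached 1 FPKM in root in 46.9% and in leaf in 74.8%, with medians of 3.71 FPKM in stem, 46.3 in flower, 0.789 in root and 10.7 in leaf. Over all 10760 contigs of that level the shares were 91.4% in root and 94.7% in leaf. On log2(FPKM + 1), root was nearer to stem than to flower for 69.4% of the contigs higher in stem and 95.8% of those higher in flower, against 73.2% of all 10760. Leaf was nearer to stem for 51.5% of those higher in stem and 62.3% of those higher in flower, against 43.6% of all. The column headers of stem and root share a prefix letter that flower and leaf lack. What the prefix stands for is not stated in the sources used here, and its part in these shares was not tested. The shares also reuse the stem and flower values that chose the contigs. Whether leaf FPKM is on the scale of the other libraries was not tested.

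Heat shock contigs were higher in flower more often than not, and the 3 families differed in how far. The 28 heat shock gene models that have a contig, of 29 listed, fall on 27 contigs, and all 27 passed the threshold of 1 FPKM. Of these, 3 were higher in stem and 24 in flower (5 and 22 with median-of-ratios factors or with the sums of both libraries set equal), against 74.6% and 25.4% of all contigs used. At 2-fold 0 were higher in stem and 14 in flower (background 49.1% and 10.1%), and at 4-fold 0 in stem and 7 in flower (background 9.57% and 2.33%). The median difference was -1.11, against 0.97 over all contigs used. However, 24 of the 27 had a mean of at least 10 FPKM, where 63.6% of all contigs were higher in flower. Of these 24, 21 were higher in flower, 12 at 2-fold and 6 at 4-fold. Of all 10760 contigs at that level, 2478 were 2-fold and 848 (7.88%) 4-fold higher in flower. In stem 1341 were 2-fold and 697 (6.48%) 4-fold higher, against 0 of the 24 at either. Each contig was therefore also placed among those of its own level.

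**Figure D4:**
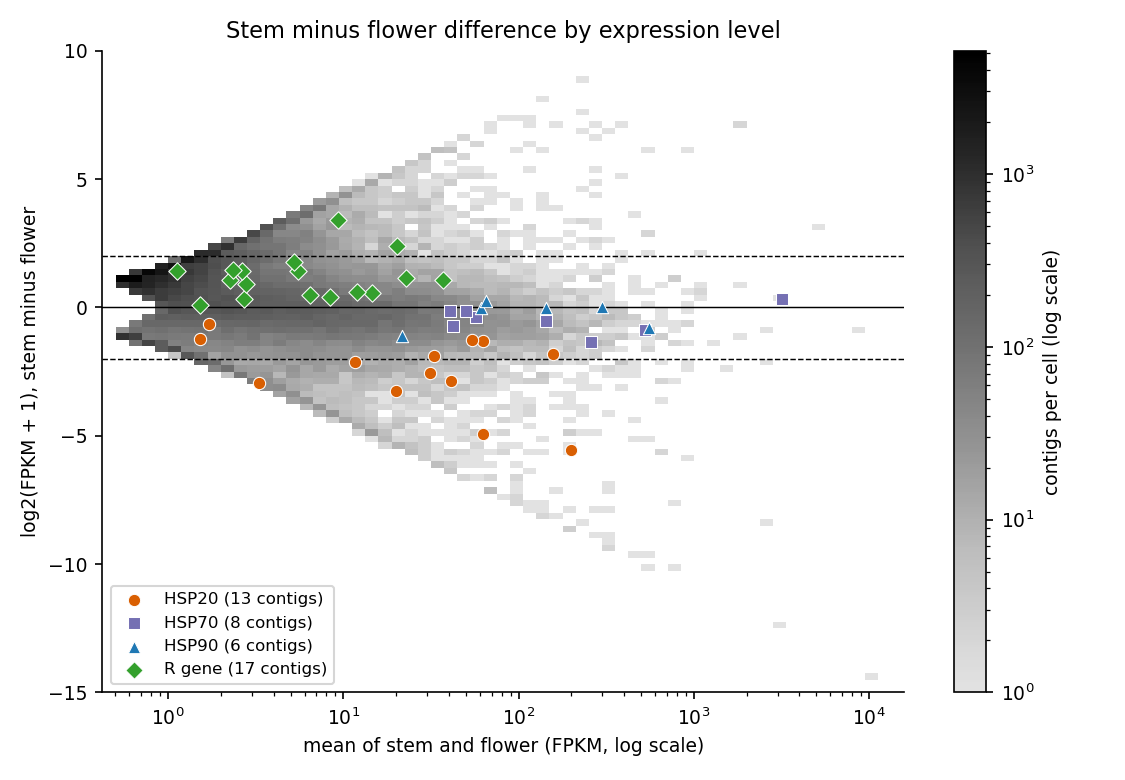
Difference in log2(FPKM + 1), stem minus flower, against the mean FPKM of the 2 libraries for the 97590 contigs used (grey, contigs per cell), with HSP20, HSP70, HSP90 and R gene contigs as coloured symbols and dashed lines at 4-fold. All 13 HSP20 contigs lie below 0 and all 17 R gene contigs above it, while HSP70 and HSP90 contigs lie between -1.35 and 0.31.

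The small chaperones stood furthest towards flower. All 13 HSP20 contigs were higher in flower, 12 of them at least 2-fold and 7 at least 4-fold. Their median was 7.31 FPKM in stem and 53.9 in flower, and their median difference was -2.14. All 13 lay below the median difference of contigs of their own level, and the share of such contigs with a lower difference ran from 0.724% to 20.4%, with a median of 5.61%. HSP20_PEQU_14369 differed most, with 7.31 FPKM in stem and 391 in flower, a difference of -5.56, and 4.42% of contigs from 100 to 1000 FPKM were lower. HSP20_PEQU_23676 followed, with 3.08 FPKM in stem and 122 in flower, a difference of -4.92. The next 4 lay between -3.24 and -2.54. Among them HSP20_PEQU_09328 had 3.01 FPKM in stem and 36.9 in flower, and HSP20_PEQU_14367 had 9.22 in stem and 72.6 in flower. HSP20_PEQU_23675 was listed at 0 in stem and had 6.61 FPKM in flower, on the contig with the weakest match of the table, a bit score of 126. The most abundant member in stem was HSP20_PEQU_09331, with 68.3 FPKM there and 246 in flower. HSP20_PEQU_14374 and HSP20_PEQU_10259 had 35.3 and 31.3 FPKM in stem and 89.1 and 76.5 in flower, differences of -1.31 and -1.26. The smallest differences belonged to the pair of low contigs. HSP20_PEQU_17855 and HSP20_PEQU_41347 share a contig with 0.514 FPKM in stem and 2.54 in flower, and HSP20_PEQU_07627 had 1.13 FPKM in stem and 2.29 in flower, a difference of -0.63. At their level of 1 to 2 FPKM the median of all contigs was 1.23, and 5.61% and 8.98% of contigs had a lower difference than these.

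HSP70 contigs leaned to flower about as far as other contigs of their level. Of 8 contigs, 1 was higher in stem and 7 in flower, 1 of them by 2-fold and none by 4-fold, with medians of 83.8 FPKM in stem and 117 in flower and a median difference of -0.44. Within their own levels 3 lay below the median of all contigs, 4 above it, and the eighth was that median itself among the 19 contigs of 1000 FPKM or more. That contig, HSP70_PEQU_18080, had 3516 FPKM in stem and 2829 in flower, a difference of 0.31. HSP70_PEQU_02517 was the one past 2-fold, with 146 FPKM in stem and 372 in flower. HSP70_PEQU_21700 had 367 FPKM in stem and 682 in flower, a difference of -0.89. HSP70_PEQU_36873 and HSP70_PEQU_17275 hardly differed, with 38.2 and 47.6 FPKM in stem and 42.7 and 53.0 in flower.

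HSP90 contigs were the nearest to equal. Of 6, 2 were higher in stem and 4 in flower, with medians of 107 FPKM in stem and 102 in flower and a median difference of -0.0036. With median-of-ratios factors or sums set equal the split was 4 higher in stem and 2 in flower and the median turned to 0.02. HSP90_PEQU_14751 had 143.6 FPKM in stem and 143.9 in flower, HSP90_PEQU_19561 had 60.9 in stem and 61.1 in flower, and HSP90_PEQU_15042 had 300.1 in stem and 296.9 in flower. These 3 lay within 0.1 of no difference. HSP90_PEQU_00122 was higher in stem, with 70.7 FPKM there and 59.1 in flower, a difference of 0.25. HSP90_PEQU_31881 was at 13.4 FPKM in stem and 30.0 in flower, the only one past 2-fold, and HSP90_PEQU_19268 had 408 in stem and 706 in flower. Since contigs of the same abundance were mostly higher in flower, 4 of the 6 lay above the median difference of their level.

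In summed FPKM HSP20 again stood apart. The 13 HSP20 contigs summed to 184 FPKM in stem and 1172 in flower, the 6 HSP90 contigs to 997 in stem and 1297 in flower, and the 8 HSP70 contigs to 4314 in stem and 4266 in flower. HSP70_PEQU_18080 decided the HSP70 sum, and the other 7 contigs came to 798 in stem and 1437 in flower. All 27 heat shock contigs together reached 5495 FPKM in stem and 6735 in flower.

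**Figure D5:**
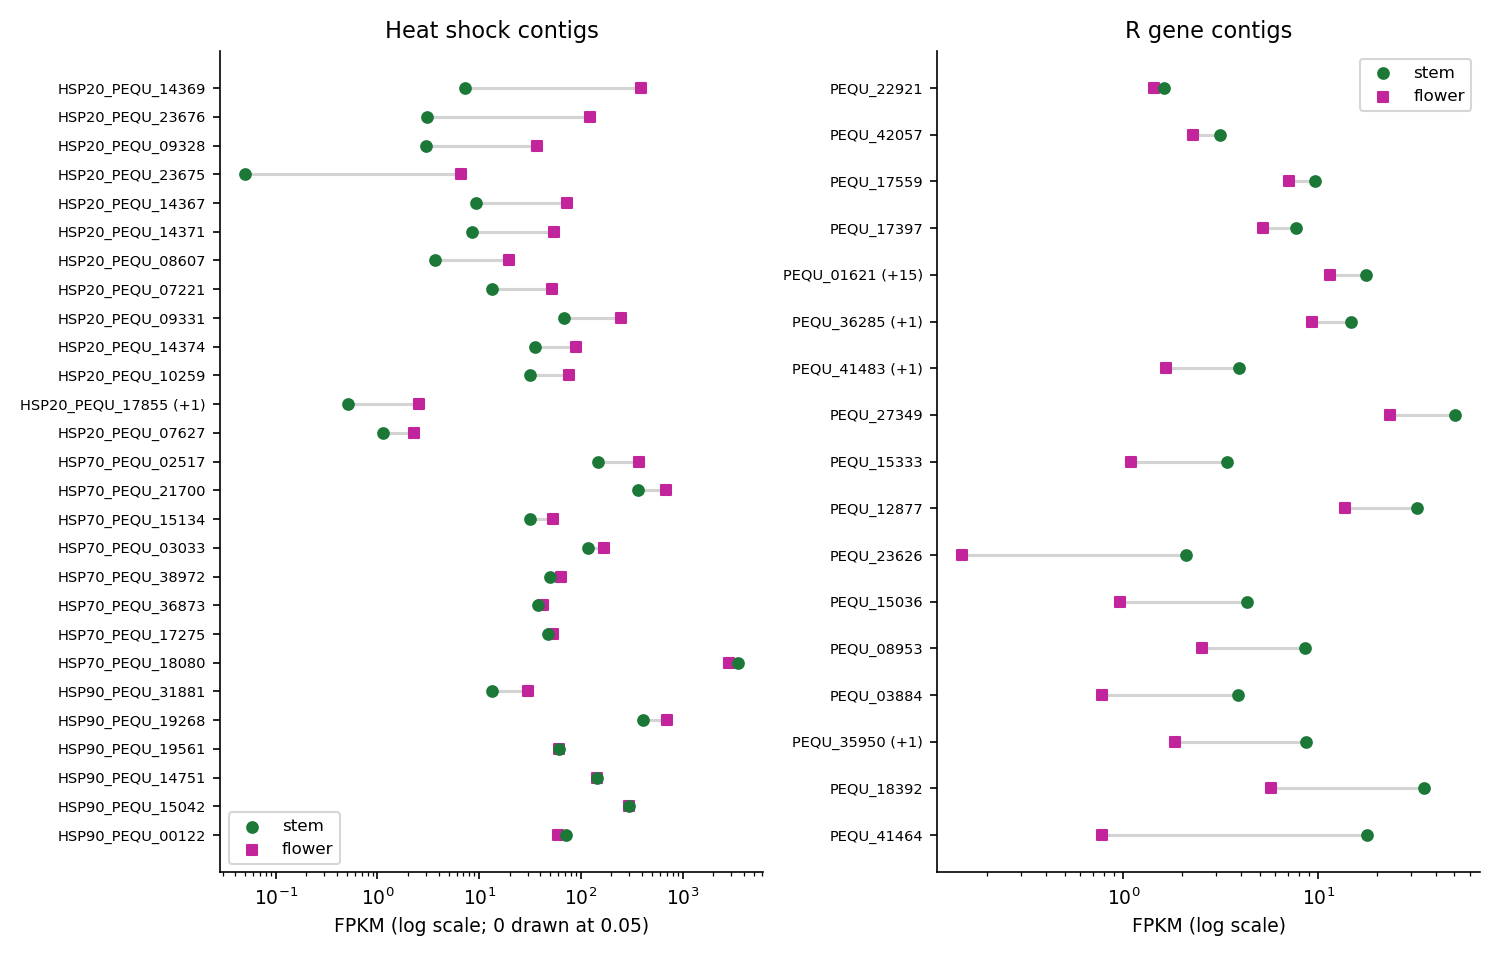
FPKM (log scale) in stem (circles) and flower (squares) for each heat shock contig (left, by family) and each R gene contig (right), ordered from the lowest to the highest stem minus flower difference within each family, named by gene model with the number of further models on the same contig in brackets. Every HSP20 square lies right of its circle, and every R gene square lies left of it.

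R gene contigs were higher in stem than in flower. The R gene table lists 35 gene models on 17 contigs, and all 17 passed the threshold. All 17 were higher in stem, against 74.6% of all contigs used, 10 of them at least 2-fold (background 49.1%) and 2 at least 4-fold (background 9.57%). Their medians were 8.51 FPKM in stem and 2.29 in flower. The median difference of 1.08 was close to the 0.97 of all contigs used. Among contigs of their own level, 15 of the 17 lay above the median difference, and the share of such contigs with a lower difference ran from 20.1% to 95.4%, with a median of 64.4%. The 5 contigs from 10 to 50 FPKM, a range in which most contigs were higher in flower, were all higher in stem.

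Single R genes differed in level and size. PEQU_41464 had the largest difference, 3.40, with 17.8 FPKM in stem and 0.778 in flower. PEQU_18392 followed with 34.7 FPKM in stem and 5.72 in flower, a difference of 2.41, and 95.4% of contigs from 20 to 50 FPKM were lower. The other contig used of the same Trinity gene differed by only 0.51. The contig of PEQU_18392 belongs to the same assembly component as the contig that stands for 16 further gene models, among them PEQU_01621. The contig of PEQU_01621 had 17.6 FPKM in stem and 11.5 in flower, a difference of 0.58. PEQU_27349 was the most abundant, with 50.4 FPKM in stem and 23.4 in flower, a difference of 1.08, and PEQU_12877 had 32.0 in stem and 13.7 in flower, a difference of 1.16. The contig of PEQU_35950 and PEQU_35952 had 8.65 FPKM in stem and 1.84 in flower. PEQU_23626 had 2.09 FPKM in stem and 0.149 in flower, a 14.0-fold ratio of FPKM, but its difference of 1.43 on log2(FPKM + 1) stood near the median of 1.23 for its low level. At the other end PEQU_22921 had 1.62 FPKM in stem and 1.43 in flower, and PEQU_42057 had 3.12 in stem and 2.29 in flower. These 2 were the ones below the median of their level. The 13 further isoform contigs used of the same Trinity genes, found in 6 of the 17 genes, were all higher in stem. Over all contigs used 74.6% were higher in stem. Only 2469 of 10865 Trinity genes with at least 2 contigs used had contigs on both sides, so isoforms are no independent support. For HSP20 there were 3 further isoform contigs in 2 genes. Of these 2 were higher in flower and 1, an isoform of HSP20_PEQU_07627, was higher in stem by 0.05.

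In root and leaf the members had values of their own. Of the 17 R gene contigs, all 17 were higher in root than in flower and 16 in leaf than in flower. Against stem, 11 of the 17 were higher in root. Of the 13 HSP20 contigs, 0 were higher in root than in flower, 2 in leaf than in flower and 2 in root than in stem. Shares over all contigs were not counted, so how these member counts compare with other contigs is unknown. Over all contigs used, the median was 1.99 FPKM for root against 0.509 for flower. Among contigs with a mean of at least 10 FPKM, it was 16.1 for root against 22.6 for flower. The scale of leaf FPKM was not tested. PEQU_41464 had 21.9 FPKM in root and 27.7 in leaf, and PEQU_18392 had 49.4 in root and 25.3 in leaf, next to the lower flower values above. PEQU_23626 had 5.00 FPKM in root and 0.16 in leaf, so its leaf value was close to that of flower. HSP20_PEQU_14369 had 2.40 FPKM in root and 0.862 in leaf, and HSP20_PEQU_23676 had 3.65 in root and 7.69 in leaf, all far below flower. HSP20_PEQU_23675 was listed at 0 in root, as in stem, but had 39.6 FPKM in leaf. Set against flower, these values share the flower library with the comparison of stem and flower and are no independent support for it.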

How the data were processed

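The authors assembled the reads of 4 libraries de novo with Trinity, per the series' design text. Mapper, FPKM estimator and read filters are not stated in these sources. The 3 deposited tables hold FPKM by the authors, per the file headers. One covers all contigs, and the others match heat shock and R gene models to contigs, with the bit score of each match as deposited by the authors. The values of the list tables were equal to those of the same contigs in the full table.

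Stem and flower columns were taken by the tissue named in the header. Contigs of at least 1 FPKM in either library were kept, and log2(FPKM + 1) in stem minus flower was computed with Python 3.11.15 and pandas 2.3.3. This scale understates the change of low contigs. FPKM values are not counts, and with 1 library per tissue no test was run. Contig levels were set by the mean FPKM of both libraries. Each list contig was counted once. The calls have no error rate. The named contigs were the 8 with the largest difference in each direction, the 5 highest of each library, the 5 most abundant within 0.1 of no difference, the 3 Trinity genes with contigs called in both directions whose smaller opposite difference was largest, and the list contigs. Alternatives were other pseudocounts, scalings, filters, units, folds and ways of counting models. The members and lists were chosen with earlier results of these data known.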

Additional observations from a re-analysis of the deposited data

How the results depend on the processing

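Counts and medians as reported were 9343 contigs 4-fold higher in stem, 2278 higher in flower (80.4% of these calls in stem) and a median difference of 0.97. A pseudocount of 0.1 gave 47792, 7147 and a median of 1.92, and one of 5 gave 609, 657 (48.1% in stem) and 0.30, so the larger side turned. At 2-fold the counts were 47920 and 9905. The median was 0.55 with no filter, 0.65 with a mean of at least 1 FPKM and 0.052 with FPKM of at least 5 in either library, where 4907 contigs were 4-fold higher in stem. It was 1.09 with the contigs of a Trinity gene summed and 1.13 over Trinity genes of a single contig, where 1425 contigs were 4-fold higher in flower. Median-of-ratios factors and sums set equal moved the median by 0.01 each and changed none of the counts by over 1.5 times. At a mean of 1000 FPKM or more the median of 0.31 turned to -0.82 with contigs summed, -0.28 in single-contig genes and -1.34 with levels set by the higher of the 2 values, an alternative chosen after seeing the data. The cause was not tested.

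For the lists, the R gene median difference of 1.08 was 1.21 and 0.47 with pseudocounts of 0.1 and 5, and 0.58 with each of the 35 models counted, all 35 higher in stem. The heat shock median of -1.11 was -0.88 with a pseudocount of 5 and -0.89 over the 25 contigs with a bit score of at least 500. At 2-fold 14 heat shock contigs were higher in flower and 10 R gene contigs in stem. Trinity genes with opposite 4-fold contigs numbered 23, against 5 and 174 with pseudocounts of 5 and 0.1 (the last added after seeing the data) and 272 at 2-fold. Root and leaf shares over all 4-fold contigs, 67.4% and 24.7% for stem and 26.3% and 46.7% for flower, were 88.1%, 69.4%, 46.9% and 74.8% at a mean of at least 10 FPKM, a restriction added after seeing the data. No paired analysis was possible because each tissue has 1 library. Reads per contig were not given, so how far low values rest on single reads is unknown.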
